A study of Mus musculus with 2 samples.

Results

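The miR-130 and miR-301 family of the mouse embryonic limb comprised 4 microRNA genes, Mir130a, Mir130b, Mir301 and Mir301b, out of 1973 microRNA genes counted. The members were taken by name for their common seed, the bases 2 to 8 of the mature strand that direct a microRNA to its messenger RNAs, a rule that uses no measured level, although the family was picked for description with earlier results of these data known. The data are small RNA sequencing of limb tissue from healthy embryos of the mouse strain B6NCrl at 12.5 days, with male and female embryos pooled and RNA under 30 nucleotides sequenced. The labels place both libraries in 1 group as biological replicates 2 and 1, pools of 68 and 88 embryos, with no treatment and no second genotype. The values therefore describe levels and their spread between 2 pools, not an effect.

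MicroRNAs are cut from hairpin precursors, and 1 strand of the resulting duplex is loaded into an Argonaute protein, which represses messenger RNAs that pair with its seed. Members of a seed family can repress overlapping sets of messenger RNAs, so the summed level of a family is of interest beside that of each gene. In cell culture, miR-130 is known to repress Pparg, a regulator of fat cell formation, and human miR-130a has been described as an angiogenic microRNA that represses homeobox genes in endothelial cells.

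The mature strands below are shown because they define the family. They are RefSeq entries of assembly GRCm38.p6, written 5′ to 3′, with the seed in capitals.
miR-130a-3p: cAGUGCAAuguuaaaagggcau
miR-130b-3p: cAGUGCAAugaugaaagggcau
miR-301a-3p: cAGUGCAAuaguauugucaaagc
The hairpin of Mir301b also holds the octamer CAGUGCAA on its 3′ side. Counted from 1 at the 5′ end, miR-130b-3p differed from miR-130a-3p by the substitutions U11A and A13G, which left 20 of 22 bases identical. miR-301a-3p matched miR-130a-3p in its first 9 bases and in 12 of 22 overall. The listed strands thus share their 5′ end, and beyond it the miR-130 strands are closer to each other than to miR-301a-3p. With no listed miR-301b-3p, a common miR-301 form beyond the octamer was not examined.

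The opposite arms, shown because each count covers a whole hairpin and can hold reads of either arm, do not share the 3p seed.
miR-130a-5p: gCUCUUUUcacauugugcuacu
miR-130b-5p: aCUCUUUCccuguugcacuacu
miR-301a-5p: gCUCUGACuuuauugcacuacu
miR-301b-5p: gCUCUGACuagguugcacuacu
The 5p arms of Mir301 and Mir301b have a seed in common, CUCUGAC, and were identical in 19 of 22 bases, with the substitutions U10A, U11G and A12G in miR-301b-5p. The 5p arms of Mir130a and Mir130b have seeds of their own. miR-130b-5p matched miR-130a-5p in 15 of 22 bases and each of the miR-301 5p arms in 16 of 22.

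The 4 genes lie at 3 loci of mm10. Mir130a (ENSMUSG00000065484, chromosome 2, 84741115 to 84741178, minus strand) overlaps no annotated host gene. On its own strand the nearest gene, Gm19426, lies 990 bp upstream, and Ypel4 lies 2459 bp away on the other strand. Mir301 (ENSMUSG00000065589, chromosome 11, 87113004 to 87113089, plus strand) lies in an intron of Ska2, which encodes a subunit of a complex that links kinetochores to spindle microtubules. Mir301b (ENSMUSG00000076288, chromosome 16, 17124400 to 17124496, minus strand) and Mir130b (ENSMUSG00000065572, chromosome 16, 17124061 to 17124142, minus strand) are neighbours separated by 257 bp, with Mir301b upstream, in an intron of the protein-coding gene 2610318N02Rik. Both hairpins were intronic in all 3 transcripts of that gene that span them, and Mir301 was intronic in the 2 spanning transcripts of Ska2. Messenger RNA of the hosts was not measured here.

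The precursors of the 3 genes with a listed 3p strand are shown with both mature arms in capitals.
Mir130a hairpin: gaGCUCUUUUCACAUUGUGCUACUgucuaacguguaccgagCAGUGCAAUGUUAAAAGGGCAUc
Mir130b hairpin: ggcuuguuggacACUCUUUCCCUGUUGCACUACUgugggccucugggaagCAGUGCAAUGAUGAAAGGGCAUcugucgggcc
Mir301 hairpin: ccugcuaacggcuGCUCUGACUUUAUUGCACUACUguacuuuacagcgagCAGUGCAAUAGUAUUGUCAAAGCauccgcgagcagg
In each, the seed-bearing strand lies on the 3′ side of the loop. The longest stretch that a member shared with any other annotated microRNA hairpin was 17 nucleotides for Mir130a, with Mir6389, and 16 nucleotides for each of the others. Mir301 and Mir301b share their 16 nucleotides with each other. No member reached the 20 nucleotides used to mark genes whose reads may not be assignable. Reads of the members could still be lost, since this check covers only exact stretches among annotated hairpins. Of all reads, 23.7% in replicate 2 and 27.2% in replicate 1 mapped to several places and were not assigned to any gene. How many of these came from the members is not known.

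The depth behind the values was 3604284 counts on microRNA genes in replicate 2 and 4525636 in replicate 1. Levels are own-strand counts per 1000000 gene counts (CPM), without division by length, because each read is 1 small RNA. A count of 0 allows up to 3 counts, or 0.832 CPM in replicate 2 and 0.663 CPM in replicate 1. All intervals are exact 95% intervals and cover counting error only. They treat reads as independent, which PCR copies are not, so they may be too narrow. Markers of limb tissues were present, with the cartilage microRNA Mir140 at 23899 ± 1020 CPM and the ectoderm microRNA Mir205 at 7403 ± 120 CPM (SD, n = 2). The liver microRNA Mir122 stood at 13.0 CPM in replicate 2 and 17.0 CPM in replicate 1. The neural Mir124a-1 had 0 counts in both libraries, which says nothing of its level, since its near-identical copies leave reads that map to several places.

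Mir130a carried most of the family's reads. It had 96570 counts in replicate 2 and 124306 in replicate 1, which are 26793 CPM (interval 26624 to 26963) and 27467 CPM (27315 to 27620). Its mean of 27130 ± 477 CPM (SD, n = 2) placed it 9th among all genes by assigned counts. All ranks given here hold for assigned reads only, since genes with near-identical copies lose reads that map to several places. Mir130b had 26506 counts in replicate 2 and 36832 in replicate 1, or 7354 CPM (7266 to 7443) and 8139 CPM (8056 to 8222), with a mean of 7746 ± 555 CPM and rank 25. Replicate 2 lay below replicate 1 for both genes, and by the larger relative amount for Mir130b.

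The miR-301 genes were lower. Mir301 had 6398 counts in replicate 2 and 8187 in replicate 1, or 1775 CPM (1732 to 1819) and 1809 CPM (1770 to 1849), with a mean of 1792 ± 24 CPM and rank 76. Mir301b had 600 counts in replicate 2 and 758 in replicate 1, or 166 CPM (153 to 180) and 167 CPM (156 to 180), with a mean of 167 ± 0.72 CPM and rank 166. The intervals of the 2 libraries overlapped for both miR-301 genes and not for the miR-130 genes. In a bulk tissue, a microRNA made in few cells and one made at a low level in many cannot be told apart.

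**Figure D1:**
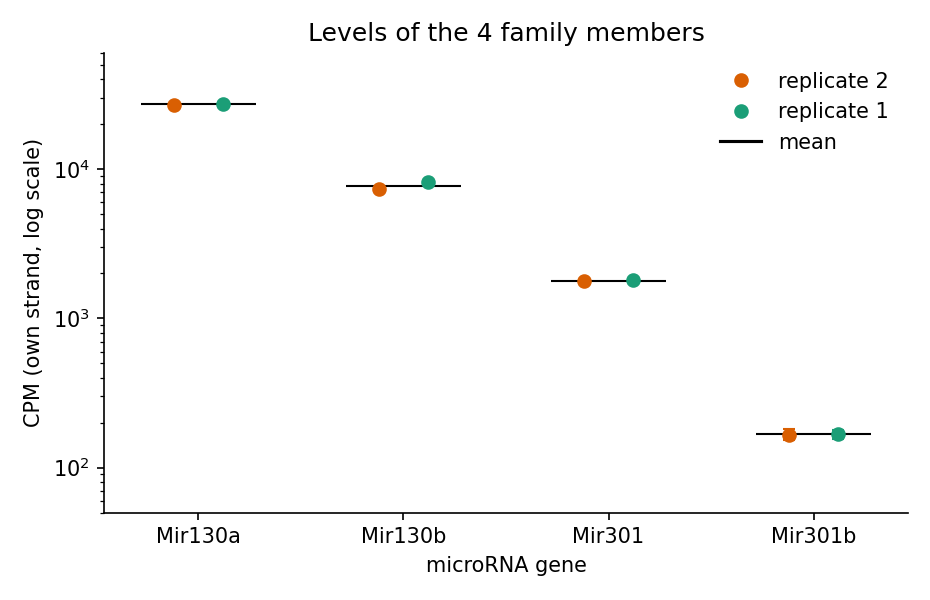
Level of each member in CPM (log axis) in replicate 2 (left point) and replicate 1 (right point), with exact Poisson 95% intervals and the mean as a line. The levels step down from Mir130a at 27130 CPM to Mir301b at 167 CPM, and no member's points reach those of the next.

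Each of the 4 members passed the detection limit, a level of at least 10 CPM in replicate 2 and in replicate 1 alike, as did 14.5% of the 1973 genes. Together they held 3.61% of the counts in replicate 2 (130074 counts, interval 3.59 to 3.63) and 3.76% in replicate 1 (170083 counts, 3.74 to 3.78), a mean of 3.68% ± 0.11. As a share of all reads of the library, unassigned ones included, the family held 1.47% ± 0.19. On the strand opposite to the hairpins, Mir130a had 0 counts in replicate 2 and 1 in replicate 1, and the other members had 0 in both. The tables have no header, and their columns were taken as own and opposite strand because nearly all counts lie in one of them, so these values restate that choice.

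The order Mir130a, Mir130b, Mir301, Mir301b was the same in both libraries, and each step was larger than the spread between them. Mir130a had 3.64 times the counts of Mir130b in replicate 2 (interval 3.59 to 3.69), and 3.37 times in replicate 1 (3.34 to 3.41), a log2 ratio of 1.81 ± 0.08. Mir130b had 4.14 times the counts of Mir301 in replicate 2 (4.03 to 4.26) and 4.50 times as many in replicate 1 (4.39 to 4.61), a log2 ratio of 2.11 ± 0.08. Mir301 had 10.7 times the counts of Mir301b in replicate 2 (9.81 to 11.6) and 10.8 times as many in replicate 1 (10.02 to 11.65), a log2 ratio of 3.42 ± 0.01. From the highest to the lowest member the ratio was 161 in replicate 2 and 164 in replicate 1. With 2 replicates of 1 group, no permutation test of these ratios is possible, and they are given against the SD between the libraries. Neither that SD nor the intervals cover how well each sequence was recovered, which was not measured. These are therefore ratios of counts.

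By locus, chromosome 2 led with Mir130a. Its gene held 74.2% of the family counts in replicate 2 and 73.1% in replicate 1. The chromosome 16 pair of Mir130b and Mir301b held 20.8% in replicate 2 and 22.1% in replicate 1, a summed level of 7913 ± 555 CPM. Mir301 in Ska2 on chromosome 11 held 4.92% in replicate 2 and 4.81% in replicate 1. The ratio of Mir130a to the chromosome 16 pair was 3.56 in replicate 2 and 3.31 in replicate 1, and that of the pair to Mir301 was 4.24 in replicate 2 and 4.59 in replicate 1. The ratio of Mir130a to Mir301 was 15.1 in replicate 2 and 15.2 in replicate 1. The locus ratios that involve chromosome 16 therefore moved more between the libraries than the ratio of chromosome 2 to chromosome 11.

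**Figure D2:**
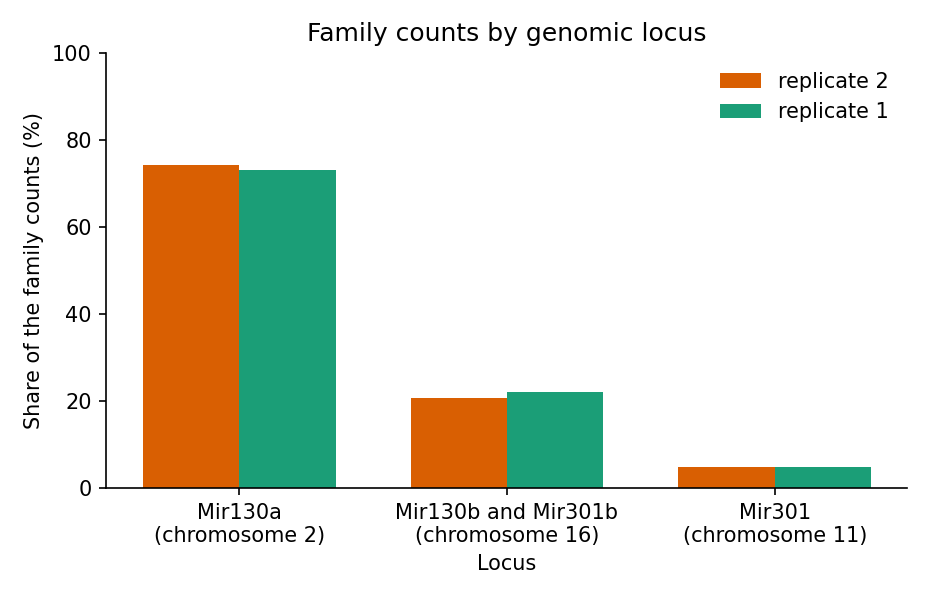
Share of the family's counts (percent) at each of the 3 loci in replicate 2 (left bar) and replicate 1 (right bar). The Mir130a locus holds 74.2% in replicate 2 and 73.1% in replicate 1, and the Mir301 locus under 5% in both.

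Grouped by name instead of locus, Mir130a and Mir130b summed to 34876 ± 1031 CPM and Mir301 and Mir301b to 1959 ± 25 CPM. The ratio of the miR-130 genes to the miR-301 genes was 17.6 in replicate 2 and 18.0 in replicate 1. The miR-130 genes held 94.6% and 94.7% of the family counts in those libraries. Because arms were not separated, a part of these counts can come from the 5p strands, whose seeds differ from that of the family.

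Within the chromosome 16 pair the neighbours stood far apart. Mir130b, the downstream hairpin, had 44.2 times the counts of Mir301b in replicate 2 (40.7 to 48.0), against 48.6 times in replicate 1 (45.2 to 52.3), a log2 ratio of 5.53 ± 0.10. As a measure of how far neighbours differ in general, 87 adjacent pairs of detected microRNA genes lie on the same strand at most 10 kb apart, and the median of their absolute log2 ratios was 2.77 (quartiles 1.41 and 4.62). The Mir130b and Mir301b difference was larger than that of 80.5% of these pairs, and 16 pairs differed more. Among the 56 pairs without genes that share 20 nucleotides with another hairpin, a set chosen after the data were seen, it was larger than 91.1%, and 4 differed more. These places are descriptions of the libraries, and the gap was not tested against any cause.

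**Figure D3:**
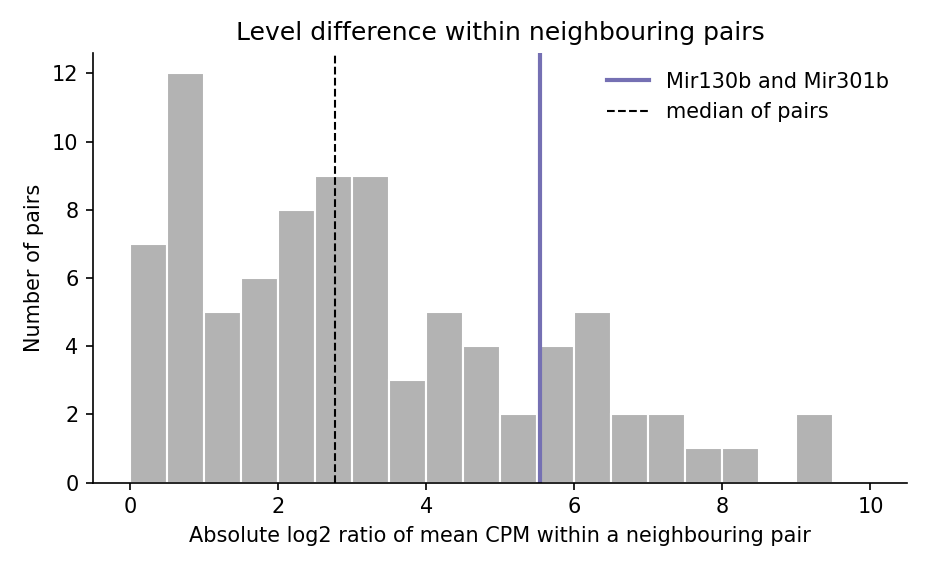
Histogram of the absolute log2 ratio of mean CPM within 87 neighbouring microRNA gene pairs (number of pairs per bin of 0.5), with the Mir130b and Mir301b pair as a solid line and the median as a dashed line. The pair lies at 5.54, above the median of 2.77 and inside the upper tail.

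RefSeq lists 4 further mouse microRNAs with the same seed, shown because the seed alone would place them in the family.
miR-130c: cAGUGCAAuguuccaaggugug
miR-6341: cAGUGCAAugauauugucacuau
miR-6389: cAGUGCAAuguuaaacuuugc
miR-721: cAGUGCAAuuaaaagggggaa
Mir130c, Mir6341 and Mir6389 had rows and had 0 counts in both libraries, which allows up to 0.832 CPM each in replicate 2 and 0.663 CPM in replicate 1. The level of Mir721 was not analysed here. Even Mir301b, the lowest member, stood at 166 CPM in replicate 2 and 167 CPM in replicate 1, above that limit. All reads that could be assigned to a gene with this seed therefore fell on the 4 members among the 7 such genes measured.

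The hairpins of these genes also differed in their computed fold. RNAfold gave the members minimum free energies of -34.5 kcal/mol per 100 nucleotides for Mir130a, -36.7 for Mir130b, -43.0 for Mir301 and -40.3 for Mir301b, beside a median of -40.6 over 1005 RefSeq mouse hairpins. The genes with the same seed outside the family folded less stably per length, at -23.9 for Mir130c, -25.1 for Mir6341, -28.7 for Mir6389 and -17.6 for Mir721. Of the 1005 hairpins, 26.7% were less stable than Mir130a and 61.1% less stable than Mir301, against 2.69% for Mir130c and 8.76% for Mir6389. Within the family both miR-130 hairpins were less stable per length than both miR-301 hairpins, and Mir130a, the most abundant member, had the least stable one. The annotated precursors are 64 nucleotides long for Mir130a, 82 for Mir130b, 86 for Mir301 and 97 for Mir301b. Whether the order of energies depends on where each annotation ends was not tested. With 4 genes no relation to the levels was computed. The octamer lies on the 3′ side in the members and in Mir130c, and on the 5′ side in Mir6341, Mir6389 and Mir721. Energies are predictions for the annotated precursor and say nothing of processing in the limb.

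MicroRNAs whose seeds overlap that of the family by 6 bases, shifted by 1 position, had lower assigned counts in sum. The representatives below are shown to make the shift visible.
miR-148a-3p: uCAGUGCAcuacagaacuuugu
miR-19a-3p: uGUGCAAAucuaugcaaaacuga
The family's 36835 ± 1056 CPM compared with 1180 ± 14 CPM for Mir148a, Mir148b and Mir152, whose seed is CAGUGCA, a ratio of 30.8 in replicate 2 and 31.6 in replicate 1. Mir148a led that group at 905 ± 19 CPM, with Mir148b at 185 ± 24 and Mir152 at 90 ± 9.1 CPM. Mir19a, Mir19b-1 and Mir19b-2, of the cluster in Mir17hg and its X-linked paralog with seed GUGCAAA, summed to 157 ± 8.4 CPM, of which Mir19a gave 122 ± 4.8 CPM. The miR-19 sum is a lower limit, because both Mir19b copies encode the same mature strand, so these counts do not show that the miR-19 group was below the family. Mir301b, the lowest member, lay between Mir148b and Mir19a in mean level, and Mir148b differed from it by less than its own SD.

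**Figure D4:**
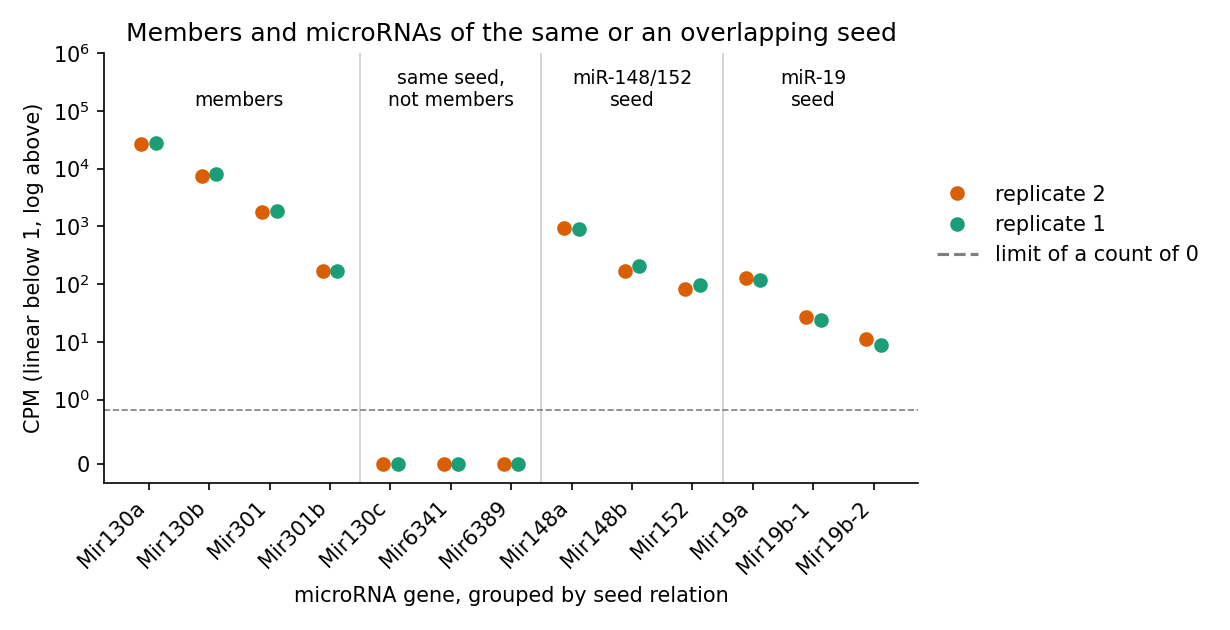
CPM (linear below 1, log above) of the 4 members, of 3 genes with the same seed and of 6 genes with an overlapping seed, in replicate 2 (left point) and replicate 1 (right point). The same-seed genes outside the family lie at 0, under the dashed limit that a count of 0 allows in replicate 2.

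Against the genes directly above and below it in level, Mir130a kept its place in both libraries, and the other members did not. Mir130a lay between Mir99b, at 30885 ± 3617 CPM, and Mir140, at 23899 ± 1020 CPM in the mean. Mir130b lay between Mir18, at 8059 ± 500 CPM, and Mir744, at 7718 ± 1095 CPM. Mir18 was the higher one in both libraries, by less than its SD in the mean. Mir744 stood above Mir130b in replicate 2 (8492 against 7354 CPM) and below it in replicate 1 (6944 against 8139 CPM). Mir301 lay between Mir125b-1 (1858 ± 169 CPM, with a near-identical copy) and Mir484 (1728 ± 335 CPM), and its place against each switched between the libraries. Mir301b lay between Mir451a (174 ± 54 CPM) and Mir675 (159 ± 42 CPM), again with a switch against each. Mir301 and Mir301b had smaller SDs than either of the genes beside them.

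Between the libraries the members moved little. The log2 ratio of CPM, replicate 2 over replicate 1 with 0.5 counts added, was -0.04 (counting SE 0.0062) for Mir130a, -0.15 (SE 0.012) for Mir130b, -0.03 (SE 0.024) for Mir301 and -0.01 (SE 0.079) for Mir301b. With TMM library sizes these ratios were -0.06, -0.17, -0.05 and -0.03 in the same order of genes, and with DESeq2 size factors they were -0.06, -0.17, -0.05 and -0.03. As computed from CPM, all 4 were below the median absolute log2 ratio of 0.18 over the 189 genes at 100 CPM or more. Of those 189 genes, 23 had a smaller absolute ratio than Mir130a, 76 than Mir130b, 15 than Mir301 and 3 than Mir301b. For Mir301b the ratio was smaller than its counting SE, so its near equality lies within what counting alone allows.

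A two-sided exact binomial test with Benjamini-Hochberg adjustment, which sets the 2 libraries against counting error alone and compares no conditions, called 2 of the 4 members among 436 genes tested, against 41.7% of all of them. Mir130a had an adjusted p of 3.04e-08 and Mir130b an adjusted p of 1.64e-35 in this exact test, both lower in replicate 2. Of all genes, 21.3% were called in that direction and 20.4% in the other. The exact binomial test did not call Mir301 (adjusted p = 0.403) or Mir301b (adjusted p = 0.968). The called members are those with the most counts, and so the smallest counting SE. With the dispersion of the same replicates, a biological coefficient of variation of 16.3%, edgeR's exact negative binomial test called 0 of the 4 members, at adjusted p-values of 1 for each, and 0 at an unadjusted p under 0.05. Over all 436 genes that test called 0% after adjustment and 5.96% before it. It sets 1 library against 1 with a dispersion taken from that same pair, so its lack of calls says nothing about the members.

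**Figure D5:**
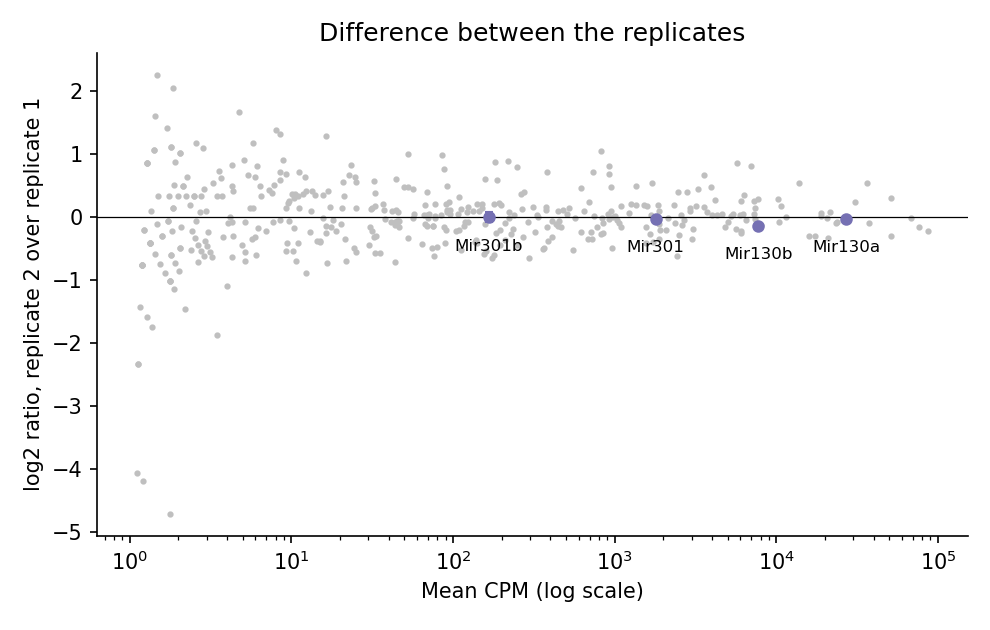
Log2 ratio of replicate 2 over replicate 1 against mean CPM (log axis) for the 436 genes tested (grey), with the 4 members in purple and bars of 1 counting SE. The members lie between -0.15 and -0.01, within the band of genes at the same level.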

How the data were processed

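Small RNA libraries of 2 limb pools were analysed. The deposited tables hold raw read counts per microRNA gene, which the authors placed on mm10 and counted over GENCODE M4, per the README deposited with each library. The aligner, counter, trimming and mismatch settings were not given in the sources used here. Each table has 3 count columns, of which the first equals the sum of the others, and the second was read as the gene's own strand, since it holds nearly all counts and the tables have no header. The 4 rows that name no gene held 63.0% of the reads in replicate 2 and 57.5% in replicate 1 and were left out of all totals.

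Identifiers were matched to GENCODE M21 (GRCm38), which named 1894 of 1973 rows. Mature and hairpin sequences came from RefSeq, which listed a 3p entry for 3 of the 4 members, miR-301b-3p being the other. Folds used RNAfold 2.7.2, statistics scipy 1.17.1, R 4.3.3, edgeR 4.0.16 and DESeq2 1.42.0. The binomial test covered genes whose summed count was at least 10, at a threshold of 0.05, and both tests were checked on simulated counts. The labels name biological replicates but not separate litters, so the spread may be partly technical. Alternatives varied the denominator, the scaling, the strand, added counts, the filter, the detection limit and the pair distance. Genes are named by rule: members, genes of the same or an overlapping seed, the genes directly above and below each member by level, and neighbours on the genome. Members and lists were chosen with earlier results of these data known.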

Additional observations from a re-analysis of the deposited data

How the results depend on the processing

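With all reads of the library as denominator, levels were 10796 CPM for Mir130a, 3091 for Mir130b, 713 for Mir301 and 66.4 for Mir301b, and the family share was 1.47%, because unassigned reads enter the total. With both strands counted, the larger total gave 26452 CPM for Mir130a and its locus, 1747 for Mir301 and its locus and 163 for Mir301b. DESeq2 size factors put Mir301b at 166 CPM. With 10 counts added to each gene, the log2 ratio of Mir301 over Mir301b was 3.40. The edgeR negative binomial test called 0 members where the binomial test called 2. The Mir130b and Mir301b difference exceeded 84.2% of the pairs at most 1 kb apart and 91.1% of those without shared-stretch genes, and without either replicate 80.5% to 83.9%. No value of the members changed direction under the alternatives run, and detection of all 4 held at 1 and 100 CPM. The design has 2 libraries, so no SD here is precise, and how well each sequence was recovered was not measured. No paired analysis was possible because there is 1 group.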
